A study of Mus musculus with 24 samples.

Results

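The mitochondrial respiratory chain was followed through 44 listed genes that encode subunits of complexes I to IV and cytochrome c, in mouse RNA of mutant and wild-type animals at 4 reproductive stages. A gene was represented by the probe set whose only gene symbol in the platform annotation was that gene, and by the one of highest mean over 24 arrays where several existed. Of the 44 genes, 42 had such a probe set and all 42 passed the filter on dim genes, out of 22180 genes with a single symbol and 15234 tested. They comprised 22 of 23 listed genes of complex I, 4 of complex II, 6 of complex III, the cytochrome c gene Cycs and 9 of 10 of complex IV. The listed genes without one were Ndufs6 and Cox6c, whose probe sets carry a second symbol. Ndufa4 was kept with complex I, as its name has it, although its product is now assigned to complex IV.

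The respiratory chain passes electrons from NADH (through complex I) and from succinate (through complex II) to ubiquinone, then through complex III and cytochrome c to oxygen at complex IV. Complexes I, III and IV pump protons across the inner mitochondrial membrane, and ATP synthase uses that gradient. All subunits named here are encoded in the nucleus, whereas a few core subunits of complexes I, III and IV are encoded in mitochondrial DNA. In the mammary gland mitochondria are known to multiply in the secretory epithelium during pregnancy and lactation, when milk synthesis raises the demand for ATP.

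The series concerns BRCA1, a tumour suppressor of homologous recombination repair, and its relation to replication, mitosis and oestrogen signalling in pregnancy. Each of 24 single-colour arrays held total RNA of a mouse sample, with 3 arrays in each of 8 groups, and the strain background combined Black Swiss, FVB and 129SVEV. The groups were mutants at V (virgin), dp12, dp18 and Lac10, and wild-type animals at the same stages, with dp and Lac read here as days of pregnancy and lactation although the design text counts the numbers in months. Neither a tissue nor the allele carried by the mutants is given in the labels, which describe the RNA treatment as a PAB-1 pull-down although the molecule is total RNA. The sample titles give a body weight for 22 arrays and a different number for each mutant sample, as for separate animals, although no label states this, and p-values reflect the spread among these arrays. Titles of dp18 and Lac10 samples with a weight also carry the word white, brown or golden, whose meaning they do not give. At Lac10 it was white, brown and brown in wild type and white, golden and white in mutants, in replicate order.

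Values are log2 expression values, and a difference of 1 is a doubling. A difference between genotypes is mutant minus wild type and one between stages is the later minus the earlier. Standard errors (SE) came from a limma model fitted over all tested genes, and a gene was called at an adjusted p under 0.05. The median SE of a genotype difference was 0.25 for the chain genes and 0.30 for all genes, and the number of arrays limits this precision. Of the 42 chain genes, 35 lay above the median mean level of tested genes and 25 were among the brightest, with a mean above 7.74.

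The arrays were unequal. Each array was correlated with all others, and the median of these values was 0.960 to 0.966 in the 6 dp12 arrays and lowest in mutant Lac10 replicate 2 (0.799), mutant dp18 replicate 1 (0.863) and wild-type dp18 replicate 1 (0.837), whose values also had the smallest spread (SD 1.65, 1.71 and 1.68). The 3 wild-type V arrays lay between 0.907 and 0.920. Of 13 measured luminal epithelial markers, 12 or 13 lay above the array median in every array of each group, and of 12 milk genes 8 did so in both V groups and 11 or 12 in all later groups, as in mammary tissue. The mean of the luminal list was low in mutant dp18 replicate 2 (7.20), mutant Lac10 replicate 2 (6.51) and mutant Lac10 replicate 3 (7.60), against 8.40 to 9.83 in the other arrays. The endothelial list was high in 2 of those arrays, at 10.3 in mutant dp18 replicate 2 and 10.1 in mutant Lac10 replicate 3, and white adipocyte genes averaged 9.44 in mutant Lac10 replicate 3, against 6.94 to 8.20 elsewhere. In wild-type V replicate 2 skeletal muscle genes averaged 7.02, against 5.35 to 5.96 elsewhere, and macrophage genes 8.86, against 6.18 to 7.96 elsewhere. In bulk RNA, fewer cells of a type and less RNA per cell cannot be told apart.

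The respiratory chain as a whole was high at dp12 in both genotypes. In every dp12 array, mutant or wild type, between 38 and 42 of the 42 genes lay above their own mean over the 24 arrays, while at V the number was 3 to 11 in both genotypes. By group mean, 41 of 42 genes were highest at dp12 in mutants, and in wild type 23 were highest at dp12 and 19 at Lac10. The lowest mean fell at V for 14 genes and at Lac10 for 26 in mutants, and at V for 36 genes and at Lac10 for 1 in wild type. In mutant Lac10 replicate 2, 30 of the 42 genes had their lowest value over the 24 arrays. In that array the median deviation from the gene's own mean was -0.42 over all tested genes. It was -1.04 over the tested genes with a mean above 7.74.

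**Figure D1:**
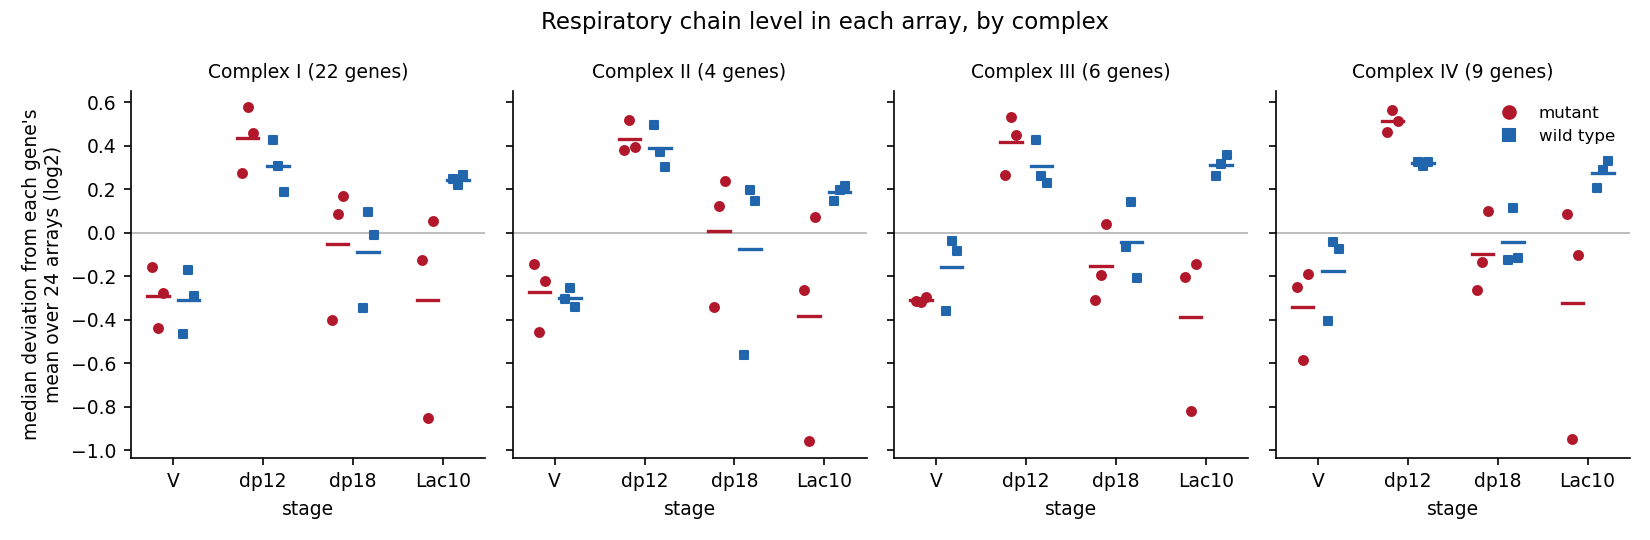
Median deviation of the genes of complexes I to IV from their own mean over 24 arrays (log2, vertical axis) in each array, by stage, with mutant arrays as circles left of wild-type arrays as squares and bars at the mean of 3 arrays. All dp12 arrays sit above 0 and all V arrays below it in each complex, and the lowest mutant Lac10 point of each panel is replicate 2.

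In mutants, 10 of the 42 chain genes rose between V and dp12 and none fell, and all 42 differences were positive, with a median of 0.77 (1.70-fold). Over all tested genes the median of this step was 0.01 and 3.02% of genes were called higher. Of the 42 genes, 37 had dp12 arrays that all lay above all V arrays, where 22.1% of all genes did so. The 10 were spread over 3 complexes, with 4 of 22 genes in complex I, 2 of 6 in complex III, 4 of 9 in complex IV and none of the 4 of complex II nor Cycs. The medians were 0.80, 0.74, 0.59 and 0.89 in complexes I, II, III and IV. With each array centred on a list of housekeeping genes the chain median was 0.52, 38 genes were positive (Ndufa6, Ndufb10, Ndufs3 and Cycs turned negative) and 1 was called, while the median of all genes shifted by -0.24. The count was 18 with array-median centring, 36 with array weights and 31 without the 3 arrays of lowest correlation. Without mutant dp12 replicate 1, 2 or 3 it was 4, 1 or 2, without mutant V replicate 2 it was 2, and without mutant Lac10 replicate 2 it was 21.

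Among complex I genes, Ndufa5, an accessory subunit of the arm that reaches into the matrix, had the smallest p of the step. In mutants the Ndufa5 values were 5.19, 5.26 and 5.02 at V, 5.80, 6.25 and 6.57 at dp12, 5.69, 5.48 and 5.64 at dp18 and 5.56, 5.72 and 5.84 at Lac10. Wild-type Ndufa5 values were 5.21, 5.16 and 5.64 at V, 6.22, 6.01 and 5.83 at dp12, 5.99, 5.78 and 5.70 at dp18 and 5.97, 5.90 and 5.85 at Lac10. The mutant dp12 arrays all exceeded the mutant V arrays and spread widely, and in wild type the dp12 and V arrays were also apart. The step was 1.05 (SE 0.20, adjusted p = 0.00265, limma) in mutants and 0.68 (SE 0.20, adjusted p = 0.0442) in wild type, and Ndufa5 was the only 1 of 13 genes called in either genotype that was called in both.

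Ndufa10, an accessory subunit of the membrane arm of complex I, behaved similarly in mutants. In mutants the Ndufa10 values were 8.83, 8.60 and 8.48 at V, 9.46, 9.59 and 9.54 at dp12, 8.50, 8.86 and 9.16 at dp18 and 9.06, 8.11 and 8.85 at Lac10. Wild-type Ndufa10 values were 8.64, 8.82 and 8.80 at V, 9.60, 9.45 and 9.18 at dp12, 8.71, 9.08 and 8.99 at dp18 and 9.31, 9.02 and 9.15 at Lac10. Its 3 mutant dp12 arrays lay close together and above every other mutant array, with a step of 0.89 (SE 0.22, adjusted p = 0.0243, limma) in mutants and 0.65 (SE 0.22, adjusted p = 0.0717) in wild type. The other complex I genes that rose in mutants were the accessory subunit genes Ndufa8 at 0.93 (adjusted p = 0.0178) and Ndufa1 at 0.86 (adjusted p = 0.0419). The core subunit genes did not pass, with Ndufv2 at 0.83, Ndufs1 at 0.82, Ndufs8 at 0.79, Ndufv1, which binds NADH, at 0.75, Ndufs7 at 0.48 and Ndufs3 at 0.15. Ndufs3, Ndufb10 (0.20), Ndufa6 (0.22) and Ndufc1 (0.52) were the complex I genes whose V and dp12 arrays overlapped in mutants.

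Ndufs4, an accessory subunit of the matrix arm whose loss causes Leigh syndrome, differed over the 4 stages in mutants without passing in this step. In mutants the Ndufs4 values were 8.61, 8.37 and 8.60 at V, 8.99, 9.12 and 9.15 at dp12, 8.07, 8.66 and 8.69 at dp18 and 8.26, 7.55 and 8.35 at Lac10. Wild-type Ndufs4 values were 8.22, 8.51 and 8.07 at V, 8.77, 8.88 and 8.61 at dp12, 8.19, 8.18 and 8.51 at dp18 and 8.72, 8.60 and 8.76 at Lac10. In mutants its dp12 arrays exceeded all others, and the Lac10 arrays lay below the V arrays. The step from V to dp12 was 0.56 (SE 0.21, adjusted p = 0.172, limma) in mutants and 0.49 (SE 0.21, adjusted p = 0.129) in wild type.

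Complex II, the succinate dehydrogenase that also serves the citric acid cycle, had the narrowest range of differences in mutants, 0.56 to 0.75, and none of its 4 genes passed there. Sdhc, a membrane anchor of the complex, was the gene of complex II with the smallest p over the 4 stages in mutants. In mutants the Sdhc values were 7.60, 7.59 and 7.52 at V, 8.00, 8.25 and 8.16 at dp12, 7.29, 7.85 and 7.71 at dp18 and 7.35, 6.85 and 7.62 at Lac10. Wild-type Sdhc values were 7.34, 7.42 and 7.62 at V, 8.37, 8.34 and 8.16 at dp12, 7.23, 8.04 and 7.91 at dp18 and 7.92, 7.70 and 7.75 at Lac10. In both genotypes its dp12 arrays lay above its V arrays. The step was 0.56 (SE 0.22, adjusted p = 0.19, limma) in mutants and 0.83 (SE 0.22, adjusted p = 0.0359) in wild type. Sdha, the flavoprotein subunit, was at 0.75 in mutants and 0.81 in wild type, Sdhb, the iron-sulfur subunit, at 0.75 and 0.48, and Sdhd, the other anchor, at 0.74 and 0.71, with none of these past the threshold.

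In complex III, Uqcrc1, a core protein of the complex on the matrix side, rose in mutants. In mutants the Uqcrc1 values were 8.77, 9.03 and 8.68 at V, 9.66, 9.90 and 9.83 at dp12, 9.07, 9.14 and 9.26 at dp18 and 9.17, 8.56 and 9.16 at Lac10. Wild-type Uqcrc1 values were 8.89, 9.35 and 9.67 at V, 9.76, 9.60 and 9.65 at dp12, 9.32, 9.44 and 9.12 at dp18 and 9.64, 9.91 and 9.86 at Lac10. In mutants the dp12 arrays stood clear of all others, whereas wild-type V arrays spread widely and overlapped the wild-type dp12 arrays. The step was 0.97 (SE 0.21, adjusted p = 0.0076, limma) in mutants and 0.37 (SE 0.21, adjusted p = 0.211) in wild type. Cyc1, cytochrome c1, which hands electrons to cytochrome c, rose as well. In mutants the Cyc1 values were 8.33, 8.44 and 8.40 at V, 9.28, 9.44 and 9.44 at dp12, 8.42, 8.52 and 8.90 at dp18 and 8.60, 7.48 and 8.59 at Lac10. Wild-type Cyc1 values were 8.06, 8.69 and 8.67 at V, 9.35, 9.16 and 8.88 at dp12, 8.69, 8.92 and 8.51 at dp18 and 9.08, 9.12 and 9.27 at Lac10. Its step was 0.99 (SE 0.25, adjusted p = 0.0267, limma) in mutants and 0.65 (SE 0.25, adjusted p = 0.0963) in wild type, and the dp12 arrays were above the V arrays in both. Uqcrc2, the partner core protein, was at 0.65 in mutants without passing, and Uqcrfs1, the Rieske iron-sulfur protein, at 0.36.

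Cycs, which encodes cytochrome c itself, was as high at V as at dp12 in mutants, unlike its neighbours in the chain. In mutants the Cycs values were 10.29, 10.44 and 10.49 at V, 10.40, 10.61 and 10.62 at dp12, 9.83, 9.65 and 9.87 at dp18 and 10.32, 9.17 and 9.54 at Lac10. Wild-type Cycs values were 9.47, 10.26 and 10.30 at V, 10.39, 10.45 and 10.24 at dp12, 10.00, 10.06 and 10.18 at dp18 and 10.19, 10.10 and 10.21 at Lac10. Its mutant V and dp12 arrays overlapped, the 3 mutant dp18 arrays lay below both, and wild-type V replicate 1 was low among the wild-type arrays. The step was 0.13 (SE 0.24, adjusted p = 0.932, limma) in mutants and 0.35 (SE 0.24, adjusted p = 0.301) in wild type. The 4 other Cycs probe sets, of which a pair held identical group means, gave differences of 0.13 to 0.43 in mutants and 0.29 to 1.01 in wild type, so the sign was shared and the size varied.

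Complex IV, cytochrome c oxidase, had the largest share of rising genes in mutants, 4 of 9, and all 9 genes had dp12 arrays above V arrays. Cox5b, a zinc-binding nuclear-encoded subunit, had the smallest p of all chain genes over the 4 mutant stages. In mutants the Cox5b values were 10.01, 9.46 and 10.06 at V, 10.56, 10.84 and 10.78 at dp12, 9.57, 9.49 and 9.95 at dp18 and 10.09, 9.22 and 9.72 at Lac10. Wild-type Cox5b values were 10.01, 10.05 and 10.02 at V, 10.57, 10.66 and 10.52 at dp12, 9.92, 10.13 and 10.05 at dp18 and 10.32, 10.13 and 10.13 at Lac10. The 3 mutant dp12 arrays were above all other mutant arrays, and wild-type V arrays lay close together and below the wild-type dp12 arrays. The step was 0.88 (SE 0.21, adjusted p = 0.0168, limma) in mutants and 0.56 (SE 0.21, adjusted p = 0.0892) in wild type.

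Cox6b1, a subunit on the intermembrane side of the oxidase, showed the same order in mutants. In mutants the Cox6b1 values were 8.68, 8.74 and 8.73 at V, 9.58, 9.66 and 9.59 at dp12, 8.45, 8.80 and 9.07 at dp18 and 8.82, 7.99 and 8.70 at Lac10. Wild-type Cox6b1 values were 8.31, 8.94 and 8.84 at V, 9.26, 9.24 and 9.01 at dp12, 8.62, 9.05 and 9.01 at dp18 and 9.21, 8.97 and 9.13 at Lac10. Its mutant dp12 arrays lay close together, above every array of any other group. The step was 0.89 (SE 0.22, adjusted p = 0.0239, limma) in mutants and 0.47 (SE 0.22, adjusted p = 0.147) in wild type.

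Cox4i1, the common isoform of the subunit through which ATP regulates the oxidase, was low in mutant V arrays. In mutants the Cox4i1 values were 9.00, 9.19 and 9.62 at V, 10.39, 10.11 and 10.29 at dp12, 9.52, 9.49 and 9.93 at dp18 and 9.84, 8.50 and 9.36 at Lac10. Wild-type Cox4i1 values were 9.63, 10.02 and 9.79 at V, 10.24, 10.15 and 9.90 at dp12, 9.65, 10.10 and 9.57 at dp18 and 10.28, 9.96 and 10.09 at Lac10. The mutant V arrays lay below the mutant dp12 arrays and below all 3 wild-type V arrays, while V and dp12 arrays overlapped in wild type. The step was 0.99 (SE 0.27, adjusted p = 0.0357, limma) in mutants and 0.28 (SE 0.27, adjusted p = 0.446) in wild type.

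Cox7c, a small subunit of the oxidase, was dim on its probe set and had the largest step of any chain gene in mutants. In mutants the Cox7c values were 5.59, 4.99 and 5.43 at V, 6.80, 6.97 and 6.41 at dp12, 5.36, 5.32 and 6.42 at dp18 and 6.07, 5.25 and 4.96 at Lac10. Wild-type Cox7c values were 5.62, 5.29 and 5.68 at V, 5.14, 5.03 and 6.48 at dp12, 6.03, 5.07 and 5.30 at dp18 and 5.22, 5.21 and 5.33 at Lac10. Wild-type dp12 replicate 3 lay far above the other wild-type dp12 arrays and inside the mutant dp12 range. The step was 1.39 (SE 0.37, adjusted p = 0.0358, limma) in mutants and 0.02 (SE 0.37, adjusted p = 0.975) in wild type.

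**Figure D2:**
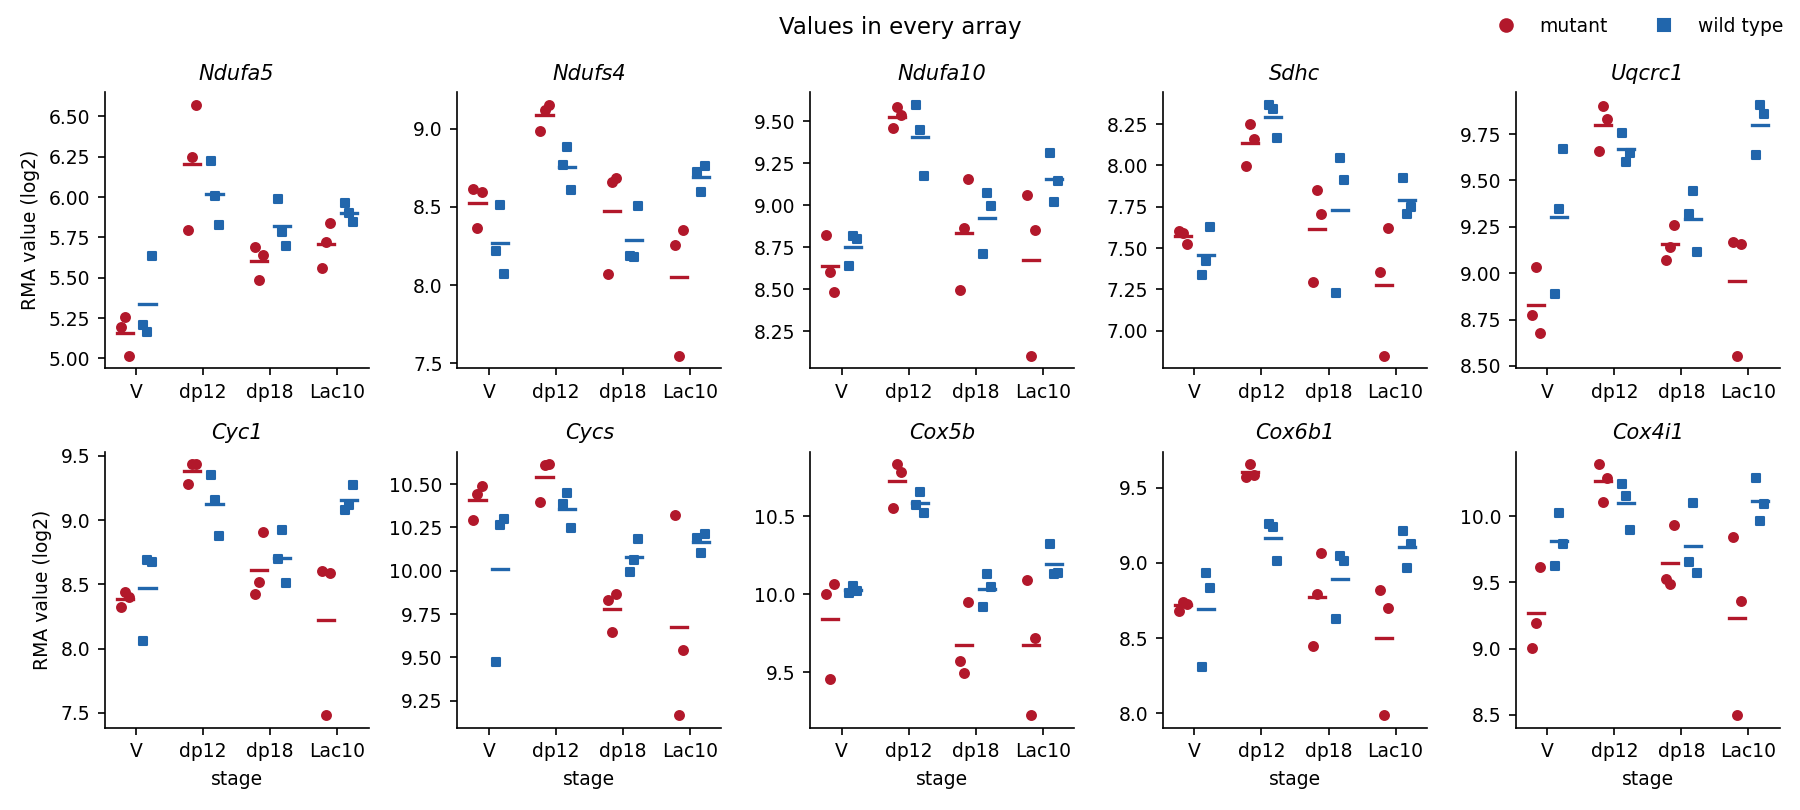
Log2 values in each array (vertical axis, a scale of its own in each panel) of the 10 genes with the smallest p over the mutant stages within their complex, by stage, with mutant arrays as circles left of wild-type arrays as squares and bars at the mean of 3 arrays. For all genes shown but Ndufa5 and Cycs the mutant dp12 arrays lie above every other mutant array, and mutant Lac10 replicate 2 is the lowest mutant Lac10 array for every gene shown but Ndufa5.

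In wild type, 4 of the 42 genes rose between V and dp12 and none fell, all 42 differences were positive, and the median was 0.55 (1.46-fold), beside a median of 0.28 over all genes and 5.91% of all genes called higher. Those 4 were Sdhc, the complex I core subunit gene Ndufs1 at 1.34 (SE 0.36, adjusted p = 0.036, limma), Ndufa5, and Uqcrc2 at 0.92 (SE 0.27, adjusted p = 0.0495). No gene of complex IV passed, the nearest being Cox7a2 at 0.89 (adjusted p = 0.0521). Of the 42 genes, 29 had dp12 arrays that all lay above all V arrays, beside 41.7% of all genes. With housekeeping centring the median of all genes shifted by -0.36, the chain median was 0.19 with 33 genes positive, and 1 was called. With array-median centring the chain median was 0.15 with 28 positive (Uqcrc1, Cycs, Cox4i1 and Cox7c were among the 14 that turned negative), and with quantile normalization 0.27 with 42 positive, and none was called with either. The chain median exceeded that of all genes by 0.27 as deposited and by 0.17 with quantile normalization. Centring shifts all genes of an array alike and cannot change this gap.

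The wild-type count rested on the arrays of the step and on the spread elsewhere. It was 0 without any 1 of the 6 wild-type V and dp12 arrays, 16 without mutant Lac10 replicate 2, 13 without wild-type dp18 replicate 1, 8 without mutant Lac10 replicate 3, 7 without mutant dp18 replicate 1, and 2 without mutant V replicate 2 or 3, mutant dp12 replicate 2, wild-type dp18 replicate 2 or wild-type Lac10 replicate 2 or 3. It was 35 with array weights and 24 without the 3 arrays of lowest correlation. Summed over the milk list, the log2 level ran from 14.90 to 15.19 at dp12 and 12.72 to 14.41 at V in mutants, and from 14.57 to 15.07 at dp12 and 13.35 to 14.15 at V in wild type. Summed over the luminal list it ran from 13.97 to 14.03 at dp12 and 13.73 to 14.34 at V in mutants, and from 14.00 to 14.12 at dp12 and 13.21 to 13.79 at V in wild type. The part of these cells in the chain's step was not tested.

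**Figure D3:**
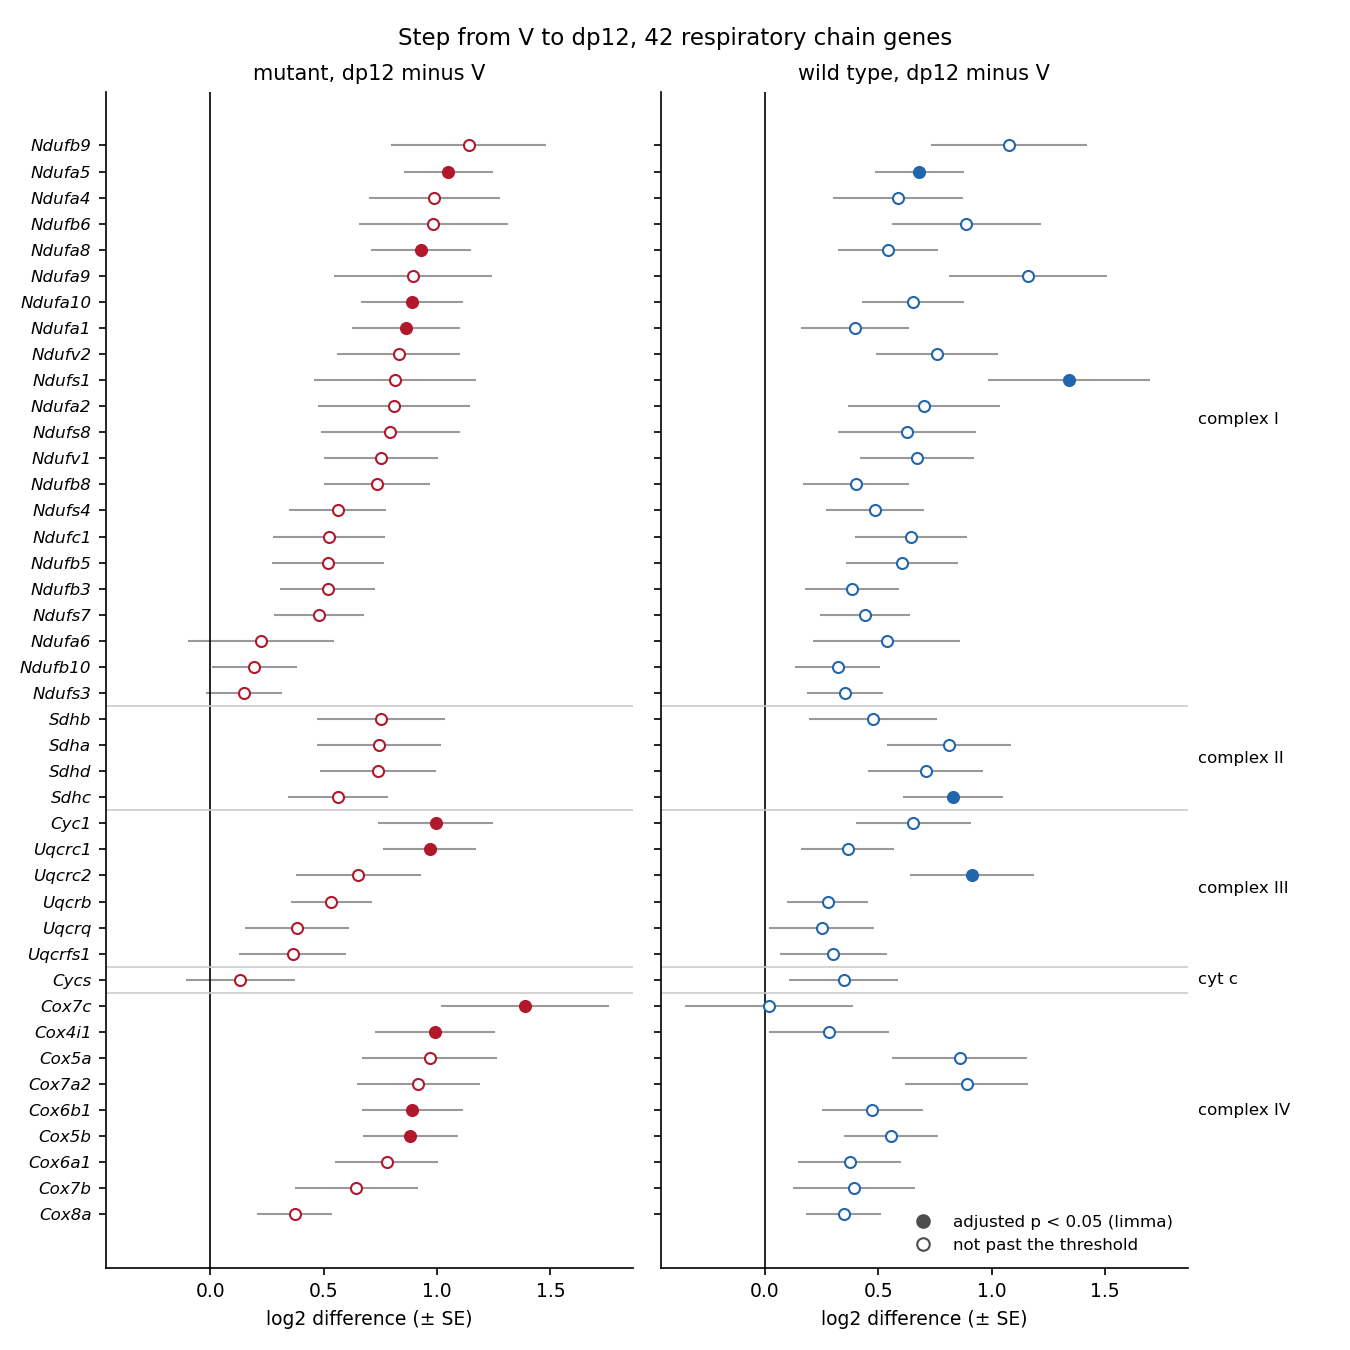
Log2 difference, dp12 minus V, of each of 42 chain genes with its SE (horizontal axis), in mutants (left) and wild type (right), ordered by complex and filled where the adjusted p was under 0.05. All 42 points are positive in both panels, with 10 filled in mutants and 4 in wild type.

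The step itself was not shown to differ between genotypes. The mutant minus wild-type difference of the step had a median of 0.10, beside -0.21 over all genes, and was positive for 31 of 42 genes. It passed for none (limma, lowest adjusted p = 0.695), and 0.00656% of all genes were called. Only 1 chain gene had an unadjusted p under 0.05, beside 907 of all 15234 genes. The largest difference was that of Cox7c at 1.37 (SE 0.53), followed among the smallest p values by Uqcrc1 at 0.60 and Cox4i1 at 0.71. The median was 0.41 with array-median centring, 0.22 with housekeeping centring and 0.32 with quantile normalization. As deposited it stood 0.31 above that of all genes, a gap that centring cannot change, and with quantile normalization 0.36 above. The chain median turned to -0.01 without wild-type V replicate 2 and was 0.03 to 0.19 without wild-type V replicate 1, wild-type dp12 replicate 3 or mutant V replicate 2 or 3. In all 9 genes of complex IV the step was larger in mutants, with a median difference of 0.33. It was larger in mutants for 15 of 22 genes in complex I, 2 of 4 in complex II and 5 of 6 in complex III. In complex IV, Cox7b reversed with the mean over its probe sets and Cox8a with array weights.

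The promoters of the chain genes were read from the RefSeq promoter table (build GRCm38.p6), which gives 250 bases before and 50 from each start. It held 33 of the 42 measured genes, and 27025 genes in all. The motif of NRF1, a factor known to activate many respiratory chain genes (GCGCA, then any base, then GCGC), was found on either strand in 7 of 33 chain genes (21.2%) and in 5.19% of all genes. The core bound by ETS factors such as GABP (CCGGAAG) was found in 8 of 33 (24.2%) and in 9.93% of all. The motif of YY1 (AANATGGCG) was found in 4 of 33 and in 2.76% of all, and that of the oestrogen-related receptors (AAGGTCA) in 1 of 33, Sdhd, and in 5.38% of all. At least 1 of the 4 motifs lay in 17 of 33 chain genes (51.5%) and in 20.5% of all genes, and a match describes only these letters. The NRF1 motif was held by Ndufa5, Ndufa6, Ndufa8, Sdha, Sdhd, Uqcrc1 and Cox6a1, the ETS core by Ndufb6, Ndufs3, Ndufs8, Sdhb, Sdhd, Cox6a1, Cox6b1 and Cox8a, and the YY1 motif by Ndufa9, Ndufc1, Ndufs4 and Ndufs7. These promoters, chosen after the values were seen, are shown 5′ to 3′ on the gene's strand with the matches in capitals, for 3 genes that rose in mutants and hold the NRF1 motif, 1 that rose and holds the ETS core, Ndufs4 with the YY1 motif, and Cox5b, which rose and holds none of the 4. They lie on the minus strand at chr6:24527477-24527776 (Ndufa5), chr2:36049289-36049588 (Ndufa8), chr13:114388045-114388344 (Ndufs4) and chr7:30626065-30626364 (Cox6b1), and on the plus strand at chr9:108936398-108936697 (Uqcrc1) and chr1:36691237-36691536 (Cox5b). Ndufa5 has a second start in the table (chr6:24527641-24527940), not printed, and the same match began 26 bases before it. The NRF1 match began 190 bases before the printed start in Ndufa5 and 30 before it in Ndufa8, the ETS match 28 before it in Cox6b1, the Uqcrc1 and Ndufs4 matches lay after the start, and no 2 of the motifs overlapped in these 6 promoters.
Ndufa5: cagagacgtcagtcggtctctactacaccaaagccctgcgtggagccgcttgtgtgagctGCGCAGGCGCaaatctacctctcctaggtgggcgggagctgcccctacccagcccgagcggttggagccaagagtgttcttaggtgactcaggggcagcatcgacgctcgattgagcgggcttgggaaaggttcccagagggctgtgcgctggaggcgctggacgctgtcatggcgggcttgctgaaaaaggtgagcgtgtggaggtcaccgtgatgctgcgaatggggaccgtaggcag
Ndufa8: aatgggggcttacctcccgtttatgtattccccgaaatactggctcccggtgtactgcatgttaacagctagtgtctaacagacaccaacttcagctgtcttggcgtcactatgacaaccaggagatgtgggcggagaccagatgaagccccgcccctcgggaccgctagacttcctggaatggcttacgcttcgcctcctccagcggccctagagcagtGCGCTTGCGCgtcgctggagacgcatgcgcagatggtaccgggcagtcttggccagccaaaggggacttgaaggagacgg
Uqcrc1: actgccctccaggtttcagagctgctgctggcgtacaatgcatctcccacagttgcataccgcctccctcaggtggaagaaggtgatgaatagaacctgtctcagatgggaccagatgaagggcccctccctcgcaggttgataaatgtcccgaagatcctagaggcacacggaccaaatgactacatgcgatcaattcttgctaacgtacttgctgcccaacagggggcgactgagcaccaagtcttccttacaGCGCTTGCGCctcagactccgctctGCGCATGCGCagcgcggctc
Cox6b1: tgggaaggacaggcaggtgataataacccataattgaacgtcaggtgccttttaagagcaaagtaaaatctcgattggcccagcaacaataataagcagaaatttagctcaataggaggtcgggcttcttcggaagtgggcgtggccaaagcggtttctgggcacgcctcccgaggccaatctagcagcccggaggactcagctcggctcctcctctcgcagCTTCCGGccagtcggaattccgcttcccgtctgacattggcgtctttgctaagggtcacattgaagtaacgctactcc
Ndufs4: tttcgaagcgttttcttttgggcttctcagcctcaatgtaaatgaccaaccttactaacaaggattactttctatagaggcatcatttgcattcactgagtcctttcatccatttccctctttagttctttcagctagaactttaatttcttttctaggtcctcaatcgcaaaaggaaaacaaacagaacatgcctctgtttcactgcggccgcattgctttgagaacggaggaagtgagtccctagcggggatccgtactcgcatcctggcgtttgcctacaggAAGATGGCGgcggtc
Cox5b: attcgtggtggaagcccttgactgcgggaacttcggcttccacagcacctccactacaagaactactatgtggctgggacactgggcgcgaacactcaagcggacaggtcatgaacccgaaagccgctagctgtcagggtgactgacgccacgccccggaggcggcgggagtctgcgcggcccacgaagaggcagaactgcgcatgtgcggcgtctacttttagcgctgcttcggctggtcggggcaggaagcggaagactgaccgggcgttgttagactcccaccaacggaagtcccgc

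After dp12 the chain genes were lower at dp18 in nearly every case, and none passed. In mutants the median difference, dp18 minus dp12, was -0.55 with 41 of 42 negative, beside -0.17 over all genes. In wild type it was -0.41 with 42 negative, beside -0.21. In limma 22 mutant and 8 wild-type chain genes had an unadjusted p under 0.05, beside 2082 and 1476 of all 15234 genes. Of all genes 0% were called in either genotype. The smallest p values in mutants were those of Cox5b at -1.05 (SE 0.21, adjusted p = 0.115), Cox6b1 at -0.84 and Cycs at -0.76, and in wild type those of Cox5b at -0.55 (SE 0.21, adjusted p = 0.484), Sdhc at -0.56 and Ndufv1 at -0.58. All dp18 arrays lay below all dp12 arrays for 30 chain genes in mutants, beside 20.6% of all genes, and for 21 in wild type, beside 18.9%. With housekeeping centring the medians were -0.40 in mutants and -0.07 in wild type, where 17 genes were then positive. Mutant and wild-type dp18 replicate 1 are among the 3 arrays of lowest correlation. Without those 3 arrays the medians were -0.44 in mutants and -0.28 in wild type, beside -0.04 over all genes in each. In the body weight fit, which drops the 2 arrays without a weight, they were -0.22 and -0.15, beside -0.004 and -0.003. In wild type 10 chain genes passed with array weights, beside 2751 of all 15234 genes. In mutants 1 passed without mutant dp18 replicate 3 or mutant Lac10 replicate 1 or 2, beside 25, 11 and 9 of all genes.

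From dp18 to Lac10 the genotypes had medians of opposite sign. In mutants the median was -0.29 with 4 of 42 genes positive, and in wild type it was 0.35 with 40 positive, beside -0.10 and 0.09 over all genes. No chain gene passed in limma. An unadjusted p under 0.05 was found for 0 chain genes in mutants and 8 in wild type, beside 449 and 1219 of all 15234 genes. With array weights 0 and 11 passed, beside 0 and 3898 of all genes. The smallest p values in mutants were those of Ndufs4 at -0.42 (SE 0.21), Sdha at -0.49 and Uqcrfs1 at -0.42 (adjusted p = 0.987 for each), and in wild type those of Cox7a2 at 0.68 (adjusted p = 0.528), Uqcrc1 at 0.51 and Ndufb9 at 0.85. For 19 genes all wild-type Lac10 arrays lay above all dp18 arrays, beside 9.83% of all genes. Leaving out wild-type dp18 replicate 1 gave a wild-type median of 0.21, and it was 0.08 with 26 genes positive in the body weight fit, which drops the 2 arrays without a weight. The mutant median was -0.44 and -0.17 without mutant dp18 replicates 1 and 3, -0.02 without mutant Lac10 replicate 2 and 0.07, with 25 genes positive, after housekeeping centring. The difference between the genotypes in this step had a median of -0.60 (-0.34 without mutant Lac10 replicate 2), beside -0.21 over all genes, was negative in 41 of 42 genes and passed for none (lowest adjusted p = 0.742, limma).

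Between V and Lac10, 2 of the 42 chain genes rose in wild type, a share no higher than the 6.01% of all genes called higher. In mutants none was called, where 2.88% of all genes were called in either direction. The wild-type median was 0.55 with 41 of 42 positive (all genes 0.15), and the mutant median was -0.10 with 14 positive (all genes -0.18), which turned to 0.23 with 32 positive without mutant Lac10 replicate 2 to 0.17 with housekeeping centring and to 0.13 with array-median centring or quantile normalization. The 2 genes were Cox7a2, the widely expressed isoform of a small oxidase subunit, at 1.08 (SE 0.27, adjusted p = 0.0187, limma), and Ndufb9, an accessory subunit of the membrane arm of complex I, at 1.38 (SE 0.34, adjusted p = 0.0176). In mutants the Ndufb9 values were 9.05, 8.89 and 8.75 at V, 9.98, 10.09 and 10.03 at dp12, 8.88, 9.13 and 9.40 at dp18 and 9.50, 7.55 and 9.23 at Lac10. Wild-type Ndufb9 values were 8.23, 8.84 and 9.08 at V, 9.91, 9.94 and 9.53 at dp12, 8.98, 9.50 and 9.26 at dp18 and 9.99, 10.05 and 10.25 at Lac10. All 3 wild-type Lac10 arrays of Ndufb9 lay above the wild-type V and dp18 arrays and above all 3 mutant Lac10 arrays, of which replicate 2 was far the lowest. In mutants the smallest p values were those of Cycs at -0.73 (SE 0.24, adjusted p = 0.0867, limma), Ndufa5 at 0.55 and Ndufb3 at 0.52. There 4 chain genes had an unadjusted p under 0.05, beside 3730 of all 15234 genes. Without mutant Lac10 replicate 1, 1 chain gene passed, beside 1794 of all genes. The wild-type count was 0 without wild-type V replicate 1 or Lac10 replicate 2 or 3, 1 without V replicate 3, 4 without mutant or wild-type dp18 replicate 1, 6 without mutant Lac10 replicate 3 and 9 without mutant Lac10 replicate 2. Over all 15234 genes the calls were 1370 and 1690 without mutant and wild-type dp18 replicate 1. They were 1489 and 1580 without mutant Lac10 replicates 3 and 2. Without wild-type V replicates 1 and 3 they were 1033 and 418, and without wild-type Lac10 replicates 2 and 3 they were 322 and 362. The chain count was 12 with housekeeping centring, beside 2290 of all genes. The difference of the step between genotypes had a median of -0.59, beside -0.44 over all genes, and it was -0.35 without mutant Lac10 replicate 2 and -0.10 with 17 genes positive after array-median centring. It passed for none of the 42 genes (limma, lowest adjusted p = 0.0774 in Ndufb9 at -1.52), beside 0.0197% of all genes. Of the 42, 13 had an unadjusted p under 0.05, beside 4688 of all 15234 genes. Without mutant Lac10 replicate 3, 12 chain genes passed, beside 3825 of all genes. Without mutant Lac10 replicate 1 or wild-type dp18 replicate 1, 2 passed, beside 657 and 2206 of all genes.

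Over the 4 stages together, 9 chain genes differed in mutants by the moderated F test of limma, beside 6.08% of all genes. They were Cox5b (adjusted p = 0.00825), Ndufa5 (0.0172), Cox6b1 (0.0176), Uqcrc1 (0.0231), Cyc1 (0.0284), Ndufs4 (0.0319), Ndufa10 (0.0429), Cycs (0.048) and Cox4i1 (0.0493). In wild type none passed, with a lowest adjusted p of 0.0552 and 21 at an unadjusted p under 0.05, beside 4.74% of all genes. The mutant count was 0 without mutant dp12 replicate 2 or 3 and with housekeeping centring, beside 312, 328 and 1258 of all genes. It was 2 without mutant dp12 replicate 1, beside 457 of all genes. Without mutant V replicates 2 and 3 it was 4 and 3, beside 327 and 481 of all genes. Without mutant dp18 replicate 3 and mutant Lac10 replicates 1 and 3 it was 14, 18 and 20. Over all genes those fits called 1747, 2161 and 1416. Without wild-type dp18 replicate 1 the mutant count was 19, beside 1970 of all genes. With all arrays the mutant test called 926 of all genes. The wild-type count was 2, 4 and 3 without mutant Lac10 replicates 1, 2 and 3, beside 831, 1274 and 1092 of all genes. It was 4 and 1 without wild-type dp18 replicates 1 and 3, beside 1411 and 710 of all genes. With all arrays the wild-type test called 722 of all genes.

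No chain gene passed as different between mutant and wild type at any stage or on average. At V the median difference was 0.00 with 21 of 42 positive, beside 0.20 over all genes, of which 0.0263% were called, and at dp18 it was 0.00 with 21 positive, beside 0.01. At dp12 it was 0.12 with 38 positive, beside 0.00 over all genes, and averaged over stages it was -0.12 with 7 positive. Without wild-type dp12 replicate 3 the dp12 median was 0.07 with 31 positive, without mutant dp12 replicate 2 it was 0.08, and without mutant Lac10 replicate 2 the average was -0.07 with 13 positive. With single arrays left out the median ran from -0.06 to 0.09 at V and from -0.13 to 0.12 at dp18. Scaling moved the V median further, to -0.28 with array-median centring, -0.12 with housekeeping centring and -0.18 with quantile normalization. There 5, 11 and 9 genes were positive, beside medians over all genes of -0.08, 0.08 and 0.05. The dp18 median was -0.19 with 4 positive after housekeeping centring, beside -0.19 over all genes. It was 0.0003 with array-median centring and 0.03 with quantile normalization. Of all genes 0% were called at dp12, at dp18 and on average. At an unadjusted p under 0.05 there were 1, 1, 0 and 3 chain genes at V, dp12, dp18 and on average. Over all 15234 genes there were 2403, 184, 100 and 458. Relative to all genes, the chain median at V was -0.20 as deposited, which centring cannot change, and -0.23 with quantile normalization.

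At V the smallest p values were those of Uqcrc1 at -0.47 (SE 0.21, adjusted p = 0.285, limma) and Cox4i1 at -0.54 (SE 0.27, adjusted p = 0.321), whose mutant V arrays all lay below the wild-type V arrays. At dp12 they were those of Cox7c at 1.18 (SE 0.37) and Cox6b1 at 0.44 (SE 0.22), with an adjusted p of 1 for both (limma). All 3 mutant dp12 arrays of Cox6b1 exceeded the wild-type ones, as they did for 5 chain genes, beside 6.69% of all genes. At dp18 they were those of Cox7b, a small oxidase subunit, at -0.54 (SE 0.27) and Cox5b at -0.36 (SE 0.21), again with an adjusted p of 1 (limma). In mutants the Cox7b values were 10.18, 9.98 and 9.82 at V, 10.48, 10.70 and 10.74 at dp12, 10.21, 9.47 and 9.82 at dp18 and 10.46, 9.26 and 10.22 at Lac10. Wild-type Cox7b values were 9.82, 9.98 and 10.34 at V, 10.15, 10.53 and 10.64 at dp12, 10.76, 10.22 and 10.11 at dp18 and 10.38, 10.63 and 10.56 at Lac10. The mutant and wild-type dp18 arrays of Cox7b overlapped. Averaged over stages the smallest p values were those of Uqcrc1 at -0.33 (SE 0.10), Cox4i1 at -0.35 (SE 0.13) and Cox5b at -0.23 (SE 0.10), with an adjusted p of 1 for each (limma).

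At Lac10 the chain was lower in mutants for 40 of 42 genes, with a median of -0.61 (0.654-fold) beside -0.19 over all genes, and none passed. The lowest adjusted p values in limma were 0.076 for Uqcrc1 at -0.84 (SE 0.21), 0.0785 for Ndufb9 at -1.34 (SE 0.34), 0.0842 for Uqcrq, a small subunit of complex III, at -0.86 (SE 0.23), 0.0847 for Cyc1 at -0.93 (SE 0.25) and 0.0928 for Cox7a2 at -0.95 (SE 0.27). Of the 42 genes 31 had an unadjusted p under 0.05, beside 2676 of all 15234 genes, and 0.236% of all genes were called. For 27 genes all mutant Lac10 arrays lay below all wild-type Lac10 arrays, beside 12.4% of all genes, with 12 of 22 in complex I, 3 of 4 in complex II, 5 of 6 in complex III and 7 of 9 in complex IV. Ndufb3 at 0.12 and Cox7c at 0.17 were the genes with a positive difference, and the medians were -0.63, -0.60, -0.76 and -0.54 in complexes I, II, III and IV.

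The size of the Lac10 difference depended on mutant Lac10 replicate 2, whose chain genes had a median deviation of -0.92 from their means, against -0.12 and -0.02 in mutant replicates 1 and 3 and 0.21, 0.25 and 0.29 in the wild-type arrays. Over all tested genes with a mean above 7.74 the median deviation was -1.04 in mutant replicate 2. Such genes gave -0.07 and 0.0005 in mutant replicates 1 and 3 and 0.22, 0.06 and -0.02 in the wild-type arrays. Without mutant Lac10 replicate 2 the median chain difference was -0.35 with 39 of 42 genes negative, beside -0.07 over all genes. With array-median centring or quantile normalization it was -0.40, and with housekeeping centring -0.53. Without the 3 arrays of lowest correlation, Ndufb9 was at -0.73 (SE 0.21, adjusted p = 0.189, limma), Uqcrc1 at -0.64 (SE 0.20, adjusted p = 0.206) and Cyc1 at -0.56 (SE 0.20, adjusted p = 0.264). The count of chain genes that passed was 5 without mutant Lac10 replicate 1, 18 without mutant Lac10 replicate 3 and 1 without wild-type Lac10 replicate 1. It was 17 with array weights, 18 with body weight as a covariate, a fit that drops the 2 arrays without a weight, and 1 with housekeeping centring. Over all 15234 genes those fits called 292, 1390, 296, 3306, 1613 and 267, in the same order. Summed over the luminal list the log2 level ran from 10.60 to 13.97 in mutant and 12.55 to 13.81 in wild-type Lac10 arrays, over the milk list from 14.93 to 15.75 and 15.31 to 15.89, over the endothelial list from 11.10 to 13.27 and 12.13 to 13.07, and over the white adipocyte list from 12.44 to 13.91 and 13.13 to 13.63. The part of cell makeup in this difference was not tested.

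**Figure D4:**
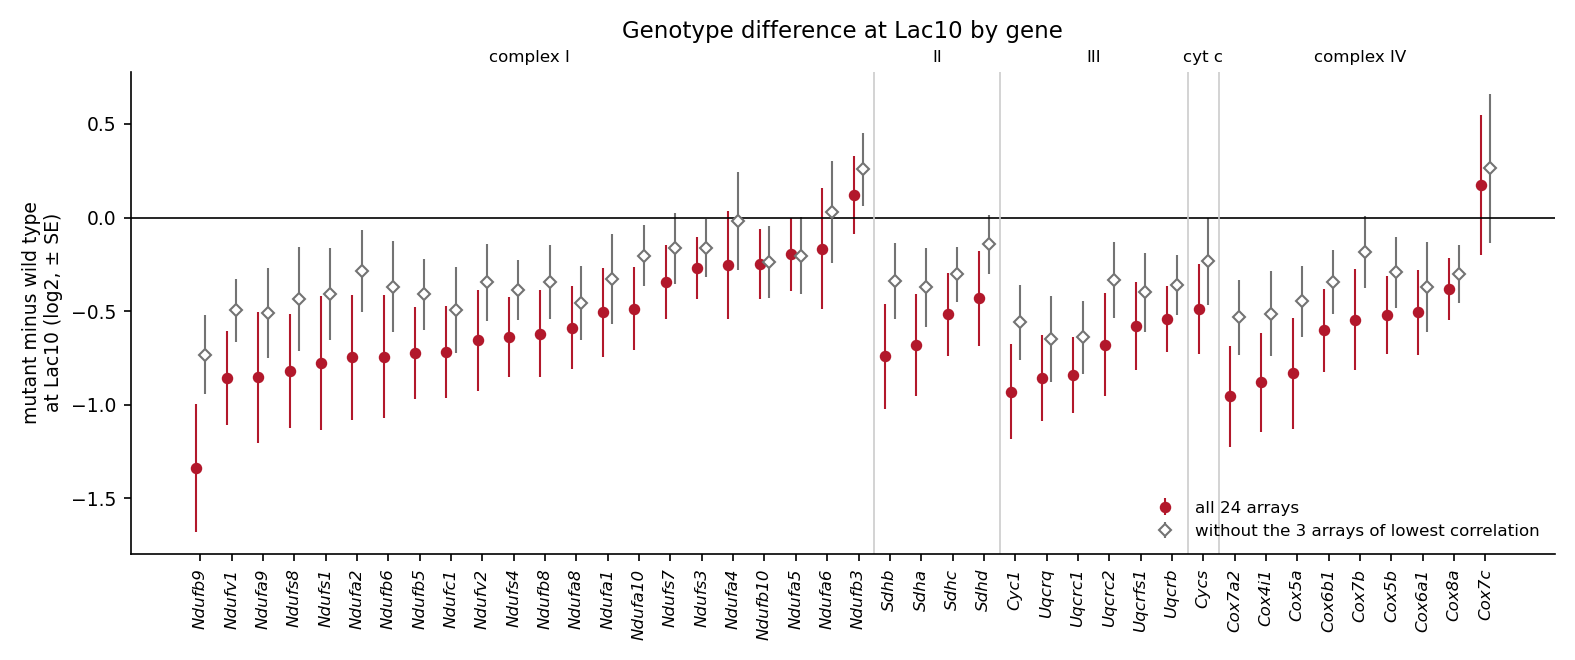
Mutant minus wild-type difference at Lac10 (log2, vertical axis) with its SE for each of 42 chain genes, ordered by complex, from all 24 arrays (filled circles) and without the 3 arrays of lowest correlation (open diamonds). With all arrays 40 of 42 points lie below 0, and without mutant Lac10 replicate 2 most move toward 0 while 39 stay below it.

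Whether the genotype difference depended on stage was tested by a moderated F test over the 4 differences. It passed for none of the 42 genes (limma, lowest adjusted p = 0.345) and for 0.00656% of all genes. Of the 42, 9 had an unadjusted p under 0.05, beside 1892 of all 15234 genes. With array weights the test passed for 14 chain genes, beside 5990 of all 15234 genes.

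The genes that surround the chain were examined in lists, beside 3.02% of all genes called higher between V and dp12 in mutants and 5.91% in wild type, with medians over all genes of 0.01 and 0.28. Of 16 measured genes of the citric acid cycle and pyruvate dehydrogenase, which supply its electrons, 3 rose between V and dp12 in mutants and 3 in wild type, with medians of 0.75 and 0.77. Suclg1, a subunit of succinyl-CoA ligase, rose by 1.04 in mutants (SE 0.17, adjusted p = 0.00111, limma) and by 0.85 in wild type, and Idh3g, of NAD-dependent isocitrate dehydrogenase, by 1.04 and 0.90. The third was Fh1, fumarate hydratase, in mutants (0.95) and Suclg2 in wild type (1.20). At Lac10 2 of the 16 were lower in mutants, the citrate synthase gene Cs at -1.46 (SE 0.29, adjusted p = 0.042, limma) and Dlat, a subunit of pyruvate dehydrogenase, at -1.39 (SE 0.28, adjusted p = 0.042), and all 16 were negative with a median of -0.71, beside 0.236% of all genes called and a median over all genes of -0.19. Without mutant Lac10 replicate 2 no gene of all those tested was called, and Cs was at -1.04 (adjusted p = 0.315, limma) and Dlat at -1.05 (adjusted p = 0.316). Each call was lost in 14 of 24 fits that left out 1 array.

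Of 38 assembly factors, 2 rose between V and dp12 in mutants, Bcs1l, which inserts the Rieske protein into complex III, at 0.87 and Sdhaf1, which aids complex II, at 1.36. In wild type 7 rose, with the smallest p values in Acad9, needed for complex I assembly, at 2.21 (SE 0.47, adjusted p = 0.0148, limma), Sdhaf3 at 0.94 and Bcs1l at 0.95, and the medians were 0.40 and 0.65. Of 13 further chain subunits 2 rose in mutants, Ndufa3 at 0.81 and Ndufb7 at 0.68, and 1 in wild type, Ndufc2 at 1.25. Of 16 ATP synthase genes 1 rose in mutants, Atp5g2, of the membrane ring, at 0.72, and none in wild type, with medians of 0.45 and 0.42. Cox7a1, the muscle isoform of the Cox7a2 subunit, rose by 0.75 in mutants and 1.09 in wild type.

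Of 14 regulators of mitochondrial biogenesis 1 rose in mutants between V and dp12, Tfb1m, a ribosomal RNA methyltransferase of mitochondria, at 1.19 (SE 0.29, adjusted p = 0.0207, limma), and 2 rose in wild type, Tfb1m at 1.22 and the coactivator gene Ppargc1b at 1.01. At Lac10 Tfb2m, a factor of mitochondrial transcription, was lower in mutants at -1.31 (SE 0.27, adjusted p = 0.0479, limma). Without mutant Lac10 replicate 2 it was at -1.19 (adjusted p = 0.338, limma), and its call was lost in 17 of 24 fits that left out 1 array. The medians of this list in the step from V to dp12 were 0.13 in mutants and 0.38 in wild type.

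The calls in these lists rested on few arrays. In mutants the V to dp12 calls of Suclg1 and Idh3g held without any 1 array, with adjusted p values up to 0.0132 and 0.0236 (limma), and the calls of Fh1, Bcs1l, Sdhaf1, Ndufa3, Ndufb7, Atp5g2, Cox7a1 and Tfb1m were each lost without mutant V replicate 2 and without mutant dp12 replicate 2 or 3. The calls of Ndufb7, Cox7a1 and Sdhaf1 were lost in 16, 15 and 9 of 24 fits that left out 1 array, and the others in 3 to 5. In wild type every call in these lists was lost without wild-type V replicate 2, V replicate 3 or dp12 replicate 1, and 0, 18 and 4 of all 15234 genes were then called, against 983 with all arrays.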

How the data were processed

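The deposited values are log2 expression levels, which the authors obtained with RMA, a background correction, quantile normalization and probe summary, as named without a version in the submitters' processing notes. The genome build behind the probe sets is not given in the sources used here. The platform annotation gave 1 symbol to 23521 of 41345 probe sets, several to 1814 and no symbol to 16010. A gene was tested if its value exceeded the array median in at least 3 arrays. A model with 8 group means over 24 arrays was fitted to 15234 genes in limma 3.58.1 (R 4.3.3), with Benjamini-Hochberg adjustment over all of them, and the procedure was tested on simulated data. Values in every array were given for the genes of smallest p over the mutant stages (3 in complex I, 1 in complex II, 2 in complex III and 3 in complex IV, with Cycs) and of smallest p between genotypes (3 on average, 2 at each stage). Stage steps and other lists name the genes of smallest p, up to 3 per list. The listed genes and the other lists were chosen with earlier results of these data known. Alternatives covered the choice of probe set, the filter, scaling, variance model, array weights, body weight, a replicate block and left-out arrays. Quantile normalization was added after seeing the data.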

Additional observations from a re-analysis of the deposited data

How the results depend on the processing

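Over all alternatives, 634 of 738 counts of called chain genes stayed within 1.5 times the main count. Of 628 medians 595 stayed within 1 within-group SD of the main median, whatever their sign. These totals do not measure robustness, as some agreements were fixed in advance. A count of 0 in both fits was taken as kept. Leaving out an array outside the compared groups cannot change a median. Of 591 results of called genes 463 kept their direction and side of the threshold. No called gene reversed sign, while uncalled ones did (4 with housekeeping centring in mutants and 14 with array-median centring in wild type for V to dp12). The causes of the changes were not tested. For the step from V to dp12 in mutants, with 10 called, the count was 18 with array-median centring, 1 with housekeeping centring, 36 with array weights, 31 with the compared groups alone, 31 without the 3 arrays of low correlation, 19 with quantile normalization and 1 to 21 with single arrays left out. In wild type, with 4 called, these counts were 0, 1, 35, 19, 24, 0 and 0 to 16, and 20 with body weight. Over all genes tested, the mutant counts were 997, 825, 4104, 2771, 1605, 790 and 262 to 850. The wild-type counts were 360, 319, 9731, 5964, 6271, 350 and 0 to 2649, and 4979 with body weight. For V to Lac10 in wild type, with 2 called, the count was 12 with housekeeping centring, 29 with array weights, 7 with the compared groups alone, 17 with body weight, 26 without the 3 arrays and 0 to 9 with single arrays left out. In mutants it was 1 with the mean of probe sets, either centring or array weights, and 0 to 1 with single arrays left out, as for dp12 to dp18. Over all genes tested, the wild-type V to Lac10 counts were 2290, 8232, 2288, 2709, 4238 and 322 to 1690. The mutant ones were 432, 461 (array-median centring), 533 (housekeeping centring), 1617 and 64 to 1794. The difference between genotypes in V to Lac10 had 1 call with housekeeping centring, 9 with array weights, 11 with body weight, 2 without the 3 arrays and 0 to 12 with single arrays left out. Over all genes tested it had 923, 6343, 4563, 2012 and 0 to 3825. The genotype difference at Lac10 had 1, 17 and 18 calls with housekeeping centring, array weights and body weight, and 0 to 18 with single arrays left out. Over all genes tested it had 267, 3306, 1613 and 0 to 1390. With array weights there were 7 calls between genotypes at V, 2 at dp12 and 1 on average. There were 10 and 11 in wild type for dp12 to dp18 and dp18 to Lac10. The difference of the V to dp12 step had 4 and the genotype by stage F test 14. Over all 15234 genes that fit called 5573, 145, 119, 2751, 3898, 4302 and 5990, in the same order. The 4-stage F test in mutants, with 9 called, gave 0 with housekeeping centring, 38 with array weights, 0 with the compared groups alone, 25 with body weight, 21 without the 3 arrays, 15 with quantile normalization and 0 to 20 with single arrays left out. In wild type it gave 3, 36, 2, 7, 23, 2 and 0 to 4, and 1 with the filter of 12 arrays. Over all genes tested, the mutant F test called 1258, 5627, 187, 3496, 1392, 950 and 312 to 2161 in these fits. The wild-type F test called 1212, 12315, 638, 2351, 5989, 700 and 98 to 1411, and 753 with that filter. Same-numbered wild-type arrays had a median correlation of 0.0269 over 18 pairs, of which 4 exceeded 0.1, and 6 of 12 arrays correlated best with their own number, so the numbers were not taken as pairing. With the wild-type number as a replicate block, 1 chain gene was called for V to dp12 in wild type, 9 in mutants, and 5 in the mutant F test. Over all genes tested there were 539, 603 and 615. Body weight was absent for 2 arrays, which that fit leaves out.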

Other observations

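Probe sets outside the comparisons gave values for genes that lacked a single-symbol probe set. A probe set shared by Ndufs6 and Ndufs6b gave a dp12 minus V difference of 1.39 in mutants and 0.94 in wild type, and a mutant minus wild-type difference of -0.90 at Lac10. A probe set shared by Cox6c and Gm6265 gave 0.52 in mutants, 0.28 in wild type and -0.31 at Lac10. The second probe sets of Cox5b, Cox7b and Ndufa8 gave 0.41, 0.28 and 0.12 in mutants and 0.27, 0.89 and 0.10 in wild type for the dp12 minus V difference. None of these was tested.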
